A study of Avicennia schaueriana with 18 samples.

Results

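Stems were compared with leaves of the same 3 trees at the equatorial site, which are 6 of the 18 libraries of the series. All transcripts of the assembly were compared, and 31468 of the 49490 had counts high enough to test. The trees, Eq4, Eq5 and Eq6, were adult, flowering individuals of the mangrove *Avicennia schaueriana*, untreated and sampled in the field on a coast close to the equator. Each gave 1 stem and 1 leaf library, so that a tree is a replicate and the tissues of a tree are paired. At sampling the air was at 28.5, 28.3 and 30.1 degrees Celsius and the relative humidity at 49, 51 and 47% for Eq4, Eq5 and Eq6, and the labelled solar irradiance was 1941, 2725 and 1434 kJ per square meter. The labels give the stem and the leaf library of a tree the same index and name no sequencing lane, and the part of a lane in the results was not tested. The same comparison was made in 6 libraries of 3 subtropical trees (St1, St2 and St4), with which the equatorial trees are compared.

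In a woody plant, the leaf blade carries out most of the photosynthesis, with chloroplasts that also make isoprenoids for chlorophyll side chains, carotenoids and hormones. The stem holds the vascular cambium and the xylem, whose cells deposit a thick secondary wall of cellulose, xylan and lignin before they die. Young stems of many trees are green as well and keep some photosynthetic tissue. Mangroves grow in saline water, and galactinol and raffinose sugars, dismutases and aquaporins are commonly studied in their responses to water deficit. A whole tissue was sequenced, and a smaller share of cells of a type and less RNA per cell cannot be told apart.

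Stem libraries held 10120311 to 15802680 counts and leaf libraries 9018391 to 14313994, with 43781 to 45400 transcripts detected in stems and 40710 to 43644 in leaves. In all 3 trees the stem had the larger total, the more detected transcripts and the higher share of non-coding counts (6.17 ± 0.12% in stems against 5.22 ± 0.03% in leaves, SD, n = 3 trees). The exact two-sided permutation test gave p = 0.25 for each, the smallest that 3 pairs allow. As a check of the tissue labels, the summed level of 11 transcripts similar to wood wall genes was 179.7, 380.3 and 3308 CPM in the Eq4, Eq5 and Eq6 stems, against 96.0, 19.0 and 125 CPM in the leaves. CPM are counts per 1e6 counts of a library, scaled by TMM. The stem exceeded the leaf 1.87-fold in Eq4, 19.98-fold in Eq5 and 26.5-fold in Eq6. No wood marker was at 0 in these 6 libraries. For 7 transcripts similar to photosynthetic genes the sum was 206, 95.1 and 139.8 CPM in stems, against 317, 202 and 274 CPM in leaves. The leaf exceeded the stem 1.54-fold, 2.13-fold and 1.96-fold, the stem of Eq4 lay just above the leaf of Eq5, and 1 of the 7, CAO, was at 0 in the leaf of Eq6. Both sums were higher in their labelled tissue within each tree. Single markers went the other way, CAO being higher in stem in 3 of 3 trees, and in Eq4 PSB27 As_15863 was also higher in stem and the wood marker TBL3 As_21328 in leaf. Transcripts with at least 20 counts in 1 tree and 0 in the other trees, within a tissue, were mostly counted in the other tissue of that tree. From leaves these were 195 of 209 in Eq4, 5 of 5 in Eq5 and 21 of 35 in Eq6, and from stems 117 of 118, 4 of 4 and 25 of 44. A stem of another tree counted at most 22 of the 209, 2 of the 5 and 7 of the 35. A leaf of another tree counted at most 13 of the 118, 2 of the 4 and 15 of the 44. The 4 reference transcripts, similar to UBC11, UBP12, UBQ6 and EIF4A1, had absolute log2 fold changes of at most 0.63, and none was called by edgeR in the 6 libraries or by DESeq2 (1 of 4 at an unadjusted p under 0.05). UBQ6 As_18630 was called lower in the 12-library fit (adjusted p = 0.0209) and without Eq6 (0.0457).

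Between stem and leaf, 6614 transcripts (21.0% of 31468) were differentially expressed by edgeR's quasi-likelihood test with the tree as a block at a Benjamini-Hochberg adjusted p under 0.05. Of these DETs, 3229 (10.3%) were higher and 3385 (10.8%) were lower in stem. Their median absolute log2 fold change was 1.98, and 1210 were higher and 581 lower by more than 3 units. In 6614 of 6614 the direction was the same in 3 of 3 trees, as it was in 59.6% of all tested. In 6021 the 3 stem libraries did not overlap the 3 leaf libraries, a separation that 40.3% of all tested transcripts showed. Coding transcripts were called more often (24.3% of 23350) than non-coding ones (11.5% of 8118), whose median level was 2.03 CPM against 15.8 CPM for coding ones. Scaling by total counts in place of TMM moved the median log2 fold change of all transcripts by 0.30 and gave 5033 higher and 2446 lower, 67.3% of the calls higher against 48.8% with TMM. Without tree Eq5 the same test called 0 transcripts, with 7697 of 34345 at an unadjusted p under 0.05, while DESeq2 called 3732. None of the 6610 DETs still fitted changed sign without Eq5. Without Eq4 or Eq6, 6375 and 5855 were called. Fitted with the subtropical libraries, 12 in all, 26.7% of 35054 were called.

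**Figure D1:**
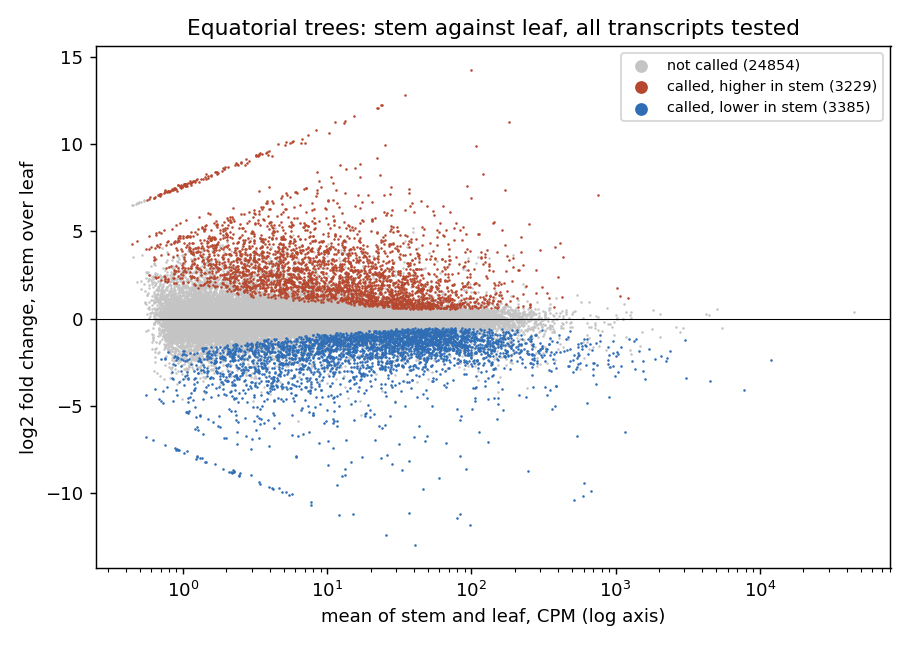
Log2 fold change of stem over leaf (vertical axis) against the mean CPM of the 2 tissues (horizontal axis, log scale) for the 31468 transcripts tested, 1 point each. The 3229 red points were called higher and the 3385 blue points lower in stem, and the lines of points at the top and bottom are transcripts counted in 1 tissue alone, whose fitted value depends on the prior count.

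Gene names were available for 129 transcripts, those that the supplementary tables of the study match to *Arabidopsis thaliana* loci, of which 123 were tested. The other 6 are similar to CLA1, MDH, HSP70, DNAJ, FAH1 and the second AT3G08860 copy, and all were under the count filter. Of the 123, 23 were higher and 15 lower in stem, beside the 10.3% and 10.8% of all transcripts. Most of the list had been chosen by the study as differing between the sites in these same leaf and stem libraries, so that the counts below are not independent of that choice.

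Of 8 transcripts of the photosynthetic apparatus, 4 were called lower and 0 higher by edgeR (5 lower by DESeq2), beside the 10.8% of all transcripts called lower, and 8 of 8 fitted values were negative, with a median log2 fold change of -1.28 against 0.00 for all tested. The transcript similar to PHOT2 (As_13960), a blue light receptor that moves chloroplasts, was at 117, 108 and 38.2 CPM in the Eq4, Eq5 and Eq6 stems, against 249.7, 273 and 111 CPM in the leaves (log2 fold change -1.32 ± 0.17, adjusted p = 0.00969). Each tree had less PHOT2 in stem, Eq6 was the lowest tree in both tissues, and the stem of Eq4 lay above the leaf of Eq6. PQL2 (As_24908), a homologue of a photosystem II extrinsic subunit that belongs to the chloroplast NADH dehydrogenase-like complex, stood at 10.1, 1.59 and 5.24 CPM in stems, against 29.0, 27.9 and 47.2 CPM in leaves (log2 fold change -2.87 ± 0.54, adjusted p = 0.0243), the 3 stems all under the 3 leaves. For PSBO1 (As_16502), which stabilizes the manganese cluster of the oxygen-evolving complex, the levels were 44.4, 8.58 and 14.9 CPM in stems, against 80.0, 42.7 and 34.0 CPM in leaves (log2 fold change -1.43 ± 0.32, adjusted p = 0.0368). PSAO (As_26420), a photosystem I subunit, had a small and even difference, with 118, 69.7 and 94.97 CPM in stems, against 175, 112 and 159.8 CPM in leaves (log2 fold change -0.67 ± 0.14, adjusted p = 0.0339). The other 4, PQL3, ABC4, PSB27 and ATPD, did not pass (adjusted p from 0.0716 to 0.850). PSB27 (As_15863), an assembly factor of photosystem II, had 17.3, 2.92 and 10.1 CPM in stems, against 15.8, 6.53 and 15.7 CPM in leaves. The qRT-PCR of the study compared equatorial with subtropical leaves and not stem with leaf, which holds for all primers shown here and below. Its primers on PHOT2 and PSAO, 2 members lower in stem, mark a stretch of each transcript and are given 5' to 3'.
PHOT2 forward: agcccaccaccattagatgc
PHOT2 reverse: ggtggagcgagaacatcatc
PSAO forward: aacagtccaaggtgccacag
PSAO reverse: aagcattccggccatcaacg
PSAO lost its call without Eq4 (adjusted p = 0.0682) or Eq6 (0.0775), and without Eq5 none of the 4 passed (0.110 to 0.218), 2 of them being called by DESeq2. Without the tree block only PQL2 was called, and PHOT2, PSBO1 and PSAO had adjusted p = 0.134, 0.234 and 0.142.

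Of 6 tested transcripts of plastid isoprenoid and chlorophyll synthesis, 3 of isoprenoid synthesis were lower in stem and 1 chlorophyll enzyme was higher, beside the 10.8% lower and 10.3% higher of all transcripts. GGPS1 As_17120, a geranylgeranyl diphosphate synthase that feeds chlorophyll and carotenoid synthesis, was at 18.5, 20.7 and 2.65 CPM in the Eq4, Eq5 and Eq6 stems, against 354, 434 and 84.7 CPM in the leaves (log2 fold change -4.53 ± 0.23, adjusted p = 0.00406). The leaf exceeded the stem 19.1-fold in Eq4, 21.0-fold in Eq5 and 32.0-fold in Eq6. IPP1 As_19328, an isopentenyl diphosphate isomerase, had 3.93, 3.98 and 3.81 CPM in stems, against 195, 204 and 69.5 CPM in leaves (log2 fold change -5.17 ± 0.39, adjusted p = 0.00492), with nearly the same level in all 3 stems. ISPD (As_48417), an enzyme of the plastid methylerythritol phosphate pathway, was at 9.22, 6.37 and 9.54 CPM in stems, against 41.9, 29.2 and 19.7 CPM in leaves (log2 fold change -1.81 ± 0.30, adjusted p = 0.0184). These 3 had no overlap between tissues. The second copies were not called by edgeR with the tree block. GGPS1 As_24340 had 31.8, 58.2 and 24.8 CPM in stems, against 179, 164 and 34.5 CPM in leaves (log2 fold change -1.49, adjusted p = 0.0609), but passed by DESeq2 (0.00416), by the exact test (0.0392), in the 12-library fit (0.0153) and without Eq6 (0.00794). IPP1 As_21256 had 2.27, 1.06 and 1.54 CPM in stems, against 2.39, 0.544 and 0.801 CPM in leaves (log2 fold change 0.53, adjusted p = 0.454). Reads matching more than 1 transcript were not counted, so that the share of near-identical copies is uncertain. CAO (As_12775), the oxygenase that makes chlorophyll b, was higher at 4.36, 7.87 and 1.65 CPM in stems, against 0.318, 0.816 and 0 CPM in leaves (log2 fold change 3.79 ± 0.60, adjusted p = 0.0157), with 0 counts in the leaf of Eq6. Its primers, shown because its direction is opposite to the other members, are 5' to 3':
CAO forward: tgcttgatggggcgaatgtc
CAO reverse: tccactgaatccctccatagcc
Without Eq5 the adjusted p of these 4 ran from 0.087 to 0.146.

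**Figure D2:**
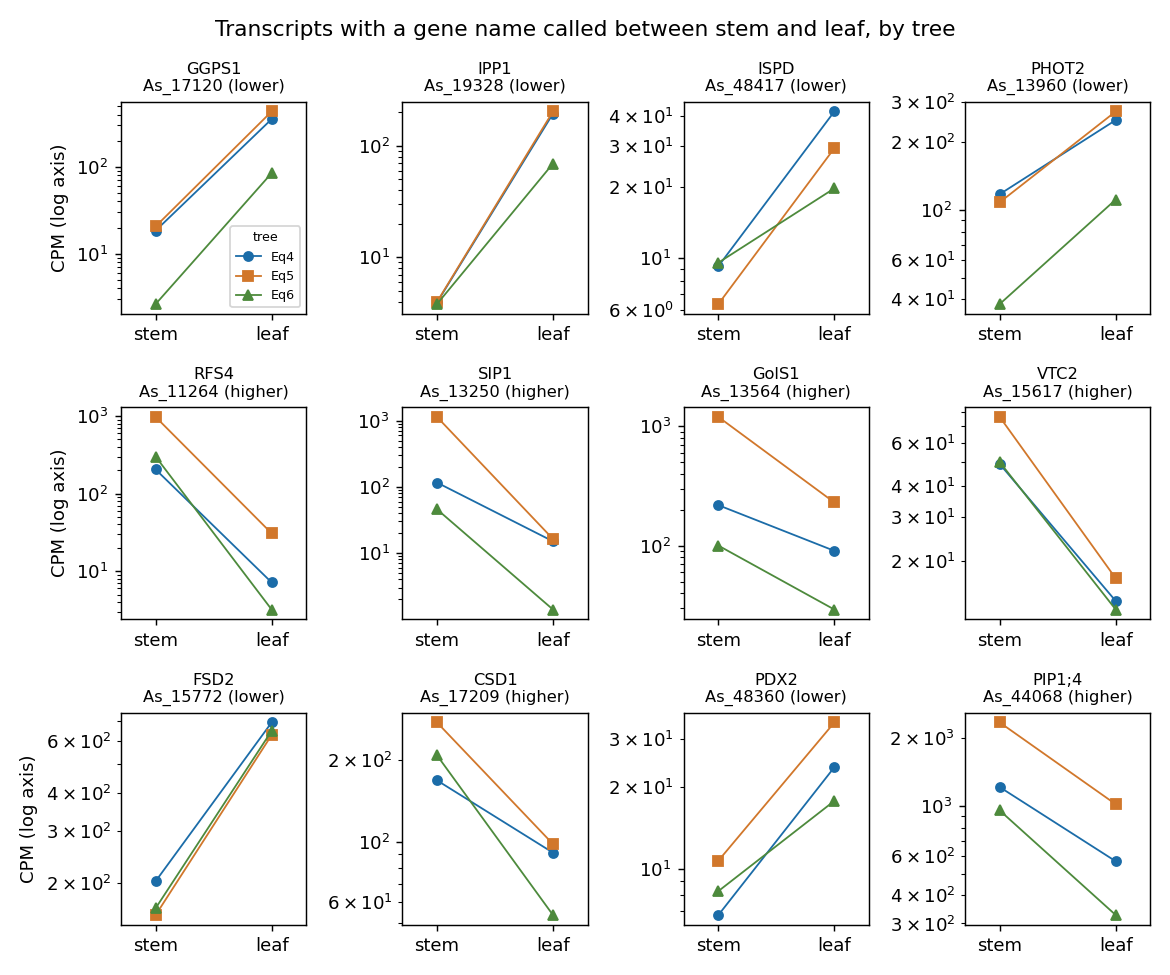
CPM (vertical, log scale) in stem and leaf of each tree for 12 transcripts with a gene name that were called, 1 line per tree, Eq4 as circles, Eq5 as squares and Eq6 as triangles. All lines of a panel run the same way, and Eq5 is the highest tree in both tissues in every panel except ISPD, PHOT2 and FSD2.

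Of 35 wall transcripts, 9 were called higher and 0 lower in stem by edgeR, beside the 10.3% of all transcripts called higher, and 30 of 35 fitted values were positive, with a median log2 fold change of 2.76. CESA4 (As_17083), CESA7 (As_14056) and CESA8 (As_12790) are the cellulose synthase subunits of the secondary wall. CESA4 was at 33.0, 78.4 and 640.5 CPM in the Eq4, Eq5 and Eq6 stems, against 20.9, 2.99 and 23.1 CPM in the leaves (log2 fold change 3.48, adjusted p = 0.0761). CESA7 had 22.9, 54.5 and 458 CPM in stems, against 12.4, 2.31 and 16.0 CPM in leaves (log2 fold change 3.47, adjusted p = 0.0627). CESA8 had 29.2, 50.4 and 533 CPM in stems, against 15.3, 3.81 and 19.8 CPM in leaves (log2 fold change 3.18, adjusted p = 0.0581). In each of the 3 the stem of Eq6 was far above the other stems, the stem of Eq4 little above its own leaf, and no stem fell under a leaf, yet none of the 3 passed the test. COBL4 (As_17319), which helps to lay down crystalline cellulose, passed with 11.9, 20.7 and 175 CPM in stems, against 5.41, 2.58 and 8.51 CPM in leaves (log2 fold change 2.86 ± 0.68, adjusted p = 0.0439).

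For xylan, 2 of 10 transcripts were higher, beside the 10.3% of all transcripts. PGSIP1 (As_44402), which adds glucuronic acid to xylan, had 7.93, 13.1 and 138 CPM in stems, against 1.67, 0.544 and 2.304 CPM in leaves (log2 fold change 4.26 ± 0.80, adjusted p = 0.0245). GXM1 (As_18275), which methylates that glucuronic acid, had 4.79, 8.49 and 98.1 CPM in stems, against 1.75, 0.544 and 3.81 CPM in leaves (log2 fold change 3.38 ± 0.73, adjusted p = 0.0339). GAUT12 (As_3499) reached 3.01, 6.72 and 64.3 CPM in stems, against 2.15, 0.272 and 3.11 CPM in leaves (log2 fold change 2.99, adjusted p = 0.0867). The 2 copies of IRX9-L lay lower in stem without passing in this fit, As_3825 at log2 fold change -1.87 and adjusted p = 0.0562 and As_8224 at -1.51 and 0.111. As_3825 was called lower in 3 of 13 alternatives, among them DESeq2 (0.0366) and the 12-library fit (0.0316). As_8224 was called lower in 2 of 13, among them the fit without Eq6 (log2 fold change -2.13, adjusted p = 0.0322). Of the lignin enzymes, the peroxidase AT5G66390 (As_19837) was higher with 50.1, 49.4 and 416 CPM in stems, against 26.3, 4.89 and 24.0 CPM in leaves (log2 fold change 2.81 ± 0.70, adjusted p = 0.0490). Laccase LAC4 (As_15146), which oxidizes lignin precursors, had 50.8, 114 and 939.9 CPM in stems, against 24.8, 3.81 and 34.4 CPM in leaves (log2 fold change 3.65, adjusted p = 0.0561) and did not pass.

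Both regulators of the list were higher in stem. The NAC switch of fibre wall formation NST1 (As_38619) had 3.56, 7.43 and 38.5 CPM in stems, against 1.27, 0.272 and 2.003 CPM in leaves (log2 fold change 3.34 ± 0.71, adjusted p = 0.0329). MYB52 (As_45261) had 17.0, 24.5 and 40.8 CPM in stems, against 3.10, 3.94 and 4.41 CPM in leaves (log2 fold change 2.77 ± 0.25, adjusted p = 0.00567), with no overlap between tissues. Among other wall proteins, the cellulose synthase-like CSLG1 (As_17427) had the largest difference of the 35, 47.7, 47.7 and 72.4 CPM in stems, against 2.71, 0.544 and 1.20 CPM in leaves (log2 fold change 5.27 ± 0.50, adjusted p = 0.00594). FLA11 (As_22978), a fasciclin-like arabinogalactan protein of fibres, had 12.1, 25.3 and 212 CPM in stems, against 4.94, 1.36 and 6.61 CPM in leaves (log2 fold change 3.50 ± 0.84, adjusted p = 0.0439). RGP1 (As_20161), a mutase that supplies arabinose for wall polysaccharides, had 28.1, 45.4 and 101 CPM in stems, against 12.7, 9.24 and 9.32 CPM in leaves (log2 fold change 2.29 ± 0.47, adjusted p = 0.0302). The rest of this group ran from -3.93 to 0.83 except CSLA2 at 1.39, none called.

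Of the 3 trees, the wood markers of the stem exceeded those of the leaf least in Eq4. Without Eq4, 23 of 35 were called higher in stem, all 11 wood markers among them, and CESA4 reached log2 fold change 4.76 (adjusted p = 0.00577). Without Eq6, 5 of the 35 and 1 of the 11 were called higher, and NST1, FLA11, GXM1 and AT5G66390 had adjusted p = 0.0707, 0.0531, 0.0564 and 0.0560. Without Eq5, 0 were called, with adjusted p from 0.087 to 0.261 for the 9, while DESeq2 called 16 higher without that tree. With 3 trees, DESeq2 and the exact test without pairing each called 22 of 35 and 11 of 11 wood markers higher, and total-count scaling 17 and 9. Of all 31468 transcripts, these settings called 4077, 4021 and 5033 higher, and total counts moved the median log2 fold change of all to 0.30. Called higher of all transcripts were 3076 of 31116 without Eq4, 2803 of 31974 without Eq6 and 3058 of 31468 without the tree block. Without Eq5, DESeq2 called 1938 of 34345 higher. Transcripts called lower in stem, such as IRX9-L As_3825 by DESeq2, are not in these counts. Without the tree block, 6 of 35 wall transcripts and 0 of 11 wood markers were called higher, and 4 of the 9 remained (adjusted p up to 0.0797). Of the edgeR fits with 1 tree left out, the wall counts were highest without Eq4 and lowest without Eq5. Without Eq5 that test called 0 of all transcripts. The 11 wood markers are among the 35, so that their sum is not independent of these counts. The part of the wood marker sum in these counts was not tested.

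**Figure D3:**
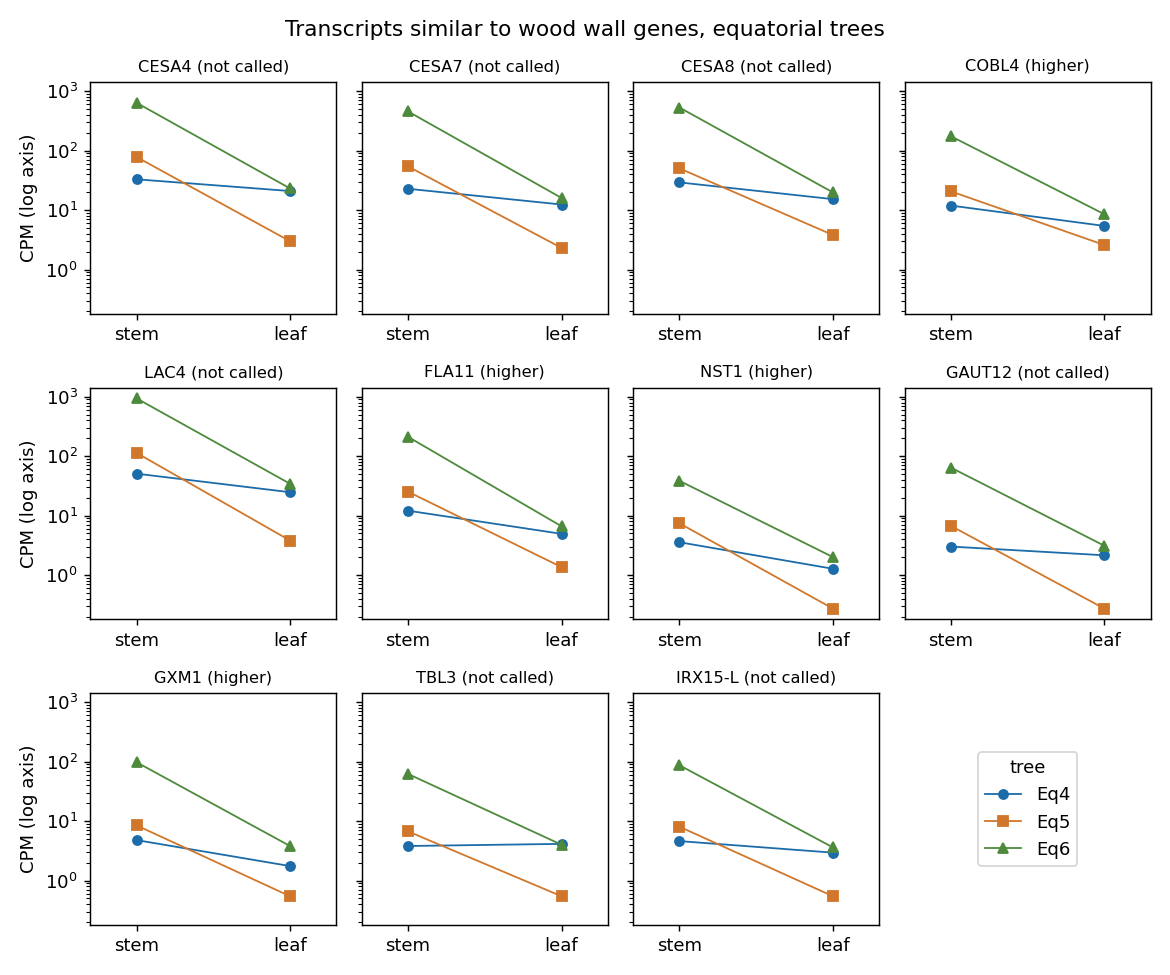
CPM (vertical, log scale) in stem and leaf of 11 transcripts similar to wood wall genes, 1 line per tree, on one scale. The lines of Eq5 and Eq6 fall steeply toward leaf and those of Eq4 fall least in most panels, and 4 panels of 11 were called.

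Raffinose sugars, which many plants build up under water deficit, had 3 of 4 transcripts called higher in stem by edgeR and 0 lower, beside the 10.3% and 10.8% of all transcripts. RFS4 (As_11264), a stachyose or raffinose synthase, stood at 205, 972 and 299 CPM in the Eq4, Eq5 and Eq6 stems, against 7.16, 30.7 and 3.21 CPM in the leaves (log2 fold change 5.40 ± 0.44, adjusted p = 0.00511). SIP1 (As_13250), a raffinose synthase, had 116, 1138 and 45.8 CPM in stems, against 15.0, 16.3 and 1.40 CPM in leaves (log2 fold change 4.68 ± 0.73, adjusted p = 0.0154). GolS1 (As_13564), the galactinol synthase of the first step, had 218, 1196 and 100.04 CPM in stems, against 90.4, 229.9 and 29.1 CPM in leaves (log2 fold change 1.81 ± 0.27, adjusted p = 0.0136). The stem of Eq5 was the highest for all 3, and for GolS1 the leaf of Eq5 lay above the stems of Eq4 and Eq6. SIP2 (As_44184), an alpha-galactosidase of the same family, was at log2 fold change -1.10 (adjusted p = 0.0969), and was called lower by DESeq2 (0.0451) and without Eq4 (log2 fold change -1.59, adjusted p = 0.0194). The primers of GolS1, the entry step, are 5' to 3':
GolS1 forward: tttgaacccgccaaatccac
GolS1 reverse: acgcatttggaatcggcttg
Without Eq5 the 3 had adjusted p from 0.087 to 0.098, and without the tree block GolS1 and SIP1 had adjusted p = 0.222 and 0.0529.

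Of the superoxide dismutases, which turn superoxide into peroxide, FSD2 (As_15772), a plastid iron enzyme, was lower with 203, 157 and 165 CPM in stems, against 691, 627 and 647 CPM in leaves (log2 fold change -1.91 ± 0.18, adjusted p = 0.00590). The 3 stems were close to each other, as were the 3 leaves, and the leaf exceeded the stem 3.40-fold, 4.01-fold and 3.92-fold. CSD1 (As_17209), the cytosolic copper/zinc enzyme, was higher with 168, 275 and 208 CPM in stems, against 91.0, 97.9 and 53.6 CPM in leaves (log2 fold change 1.44 ± 0.25, adjusted p = 0.0196). The copy As_26546 (log2 fold change 0.59, adjusted p = 0.159) and the plastid CSD2 (As_38172, log2 fold change 1.47, adjusted p = 0.154) were not called by edgeR. CSD2 was called by DESeq2 (adjusted p = 0.0441) and without Eq4 (log2 fold change 2.32, adjusted p = 0.0164). In vitamin synthesis, VTC2 (As_15617), the step that commits to ascorbate, was higher at 49.2, 76.1 and 50.02 CPM in stems, against 13.8, 17.0 and 12.7 CPM in leaves (log2 fold change 1.99 ± 0.16, adjusted p = 0.00492). Both PDX2 copies, of vitamin B6 synthesis, were lower. PDX2 As_48360 had 6.76, 10.7 and 8.27 CPM in stems, against 23.6, 34.4 and 17.7 CPM in leaves (log2 fold change -1.53 ± 0.23, adjusted p = 0.0140). PDX2 As_4337 had 7.13, 7.87 and 7.89 CPM in stems, against 23.0, 31.1 and 15.1 CPM in leaves (log2 fold change -1.54 ± 0.28, adjusted p = 0.0216). DRT102 (As_14939), named for DNA damage tolerance, was higher at 38.4, 43.2 and 46.3 CPM in stems, against 21.5, 16.3 and 17.0 CPM in leaves (log2 fold change 1.23 ± 0.19, adjusted p = 0.0157). Without Eq5 these 6 had adjusted p from 0.087 to 0.160, and without Eq4 PDX2 As_4337 had adjusted p = 0.0548.

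Water and stress transcripts went to either side. The aquaporin PIP1;4 As_44068, a water channel of the plasma membrane, was among the most abundant named transcripts, with 1213, 2352 and 955 CPM in the Eq4, Eq5 and Eq6 stems, against 567, 1018 and 327 CPM in the leaves (log2 fold change 1.28 ± 0.22, adjusted p = 0.0194). Its copy As_20592 had 9.77, 27.4 and 229 CPM in stems, against 7.24, 2.18 and 10.8 CPM in leaves (log2 fold change 2.88, adjusted p = 0.0841), and passed by DESeq2 (0.000203), by the exact test (0.0116), in the 12-library fit (0.0285) and without Eq4 (0.00645). The stem of Eq4 was above the leaves of all 3 trees for As_44068, and the stem of Eq6 was under the leaf of Eq5. The primers of As_44068, the more abundant copy, are 5' to 3':
PIP1;4 forward: agtgccttggtgccatttgtg
PIP1;4 reverse: acaaaggtgcccacgatttcag
ERD4 (As_2569), an early dehydration-responsive membrane protein, was higher with 7.31, 8.93 and 89.7 CPM in stems, against 2.39, 0.816 and 1.80 CPM in leaves (log2 fold change 3.56 ± 0.87, adjusted p = 0.0467). Both copies of HSP101 (As_23151 and As_23412), a chaperone that untangles aggregates, were lower in stem. HSP101 As_23151 had 0.860, 0.177 and 3.97 CPM in stems, against 4.86, 2.18 and 19.1 CPM in leaves (log2 fold change -2.58 ± 0.37, adjusted p = 0.0125). The copy As_23412 had 0.246, 0 and 1.05 CPM in stems, against 2.79, 1.22 and 8.81 CPM in leaves (log2 fold change -3.48 ± 0.58, adjusted p = 0.0184), with the leaf of Eq6 the highest for both. The universal stress protein AT3G53990 (As_20859) was higher with 33.7, 57.7 and 49.2 CPM in stems, against 16.5, 34.1 and 10.1 CPM in leaves (log2 fold change 1.34 ± 0.34, adjusted p = 0.0490). The ethylene response factor RAP2.3 (As_38607), which acts in low oxygen, had 10.6, 4.69 and 8.22 CPM in stems, against 0, 0 and 0.100 CPM in leaves. That is a sum of 374 counts in stems against 1 in leaves, and a scaled ratio of 245 (95% counting interval 43.6 to 9688, adjusted p = 0.00602). RAP2.4 As_15910 had 22.7, 8.66 and 7.45 CPM in stems, against 2.15, 2.45 and 2.70 CPM in leaves (log2 fold change 2.23 ± 0.47, adjusted p = 0.0319). The far more abundant copy As_11218 had 616, 222 and 144 CPM in stems, against 372, 398 and 458 CPM in leaves (log2 fold change -0.61, adjusted p = 0.431). It was called lower in stem without Eq4 (log2 fold change -1.25, adjusted p = 0.0488). NCED3 (As_19228), the step that limits abscisic acid synthesis, stood at 81.0, 29.8 and 7.56 CPM in stems, against 71.6, 108 and 63.6 CPM in leaves (log2 fold change -1.59, adjusted p = 0.158). With 3 trees it was called by DESeq2 alone of the 2 tools (0.0277), and edgeR called it lower without Eq4 (log2 fold change -2.45, adjusted p = 0.0149). Without Eq5 the adjusted p of these calls ran from 0.087 to 0.225, AT3G53990 had 0.0701 without Eq4, and without the tree block PIP1;4 As_44068, HSP101 As_23151, HSP101 As_23412 and AT3G53990 had 0.170, 0.2001, 0.0942 and 0.111.

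In the remaining lists, the light signalling factor HY5 As_46493 was lower with 38.1, 46.8 and 18.1 CPM in stems, against 56.1, 67.0 and 30.6 CPM in leaves (log2 fold change -0.61 ± 0.14, adjusted p = 0.0405), and lost its call without any one tree (adjusted p from 0.0873 to 0.217) and without the tree block (0.385). The MADS-box factor AGL24 (As_10296), a flowering regulator in *Arabidopsis*, was lower with 0, 0.177 and 0.110 CPM in stems, against 7.56, 1.09 and 11.7 CPM in leaves (log2 fold change -6.03 ± 1.05, adjusted p = 0.0202), and could not be fitted without Eq4. The helicase ATSGS1 (As_25244) was higher with 5.47, 4.77 and 5.35 CPM in stems, against 1.27, 0.952 and 2.003 CPM in leaves (log2 fold change 1.91 ± 0.36, adjusted p = 0.0245). The aminotransferase AT3G08860 As_46832 was higher with 3.01, 5.30 and 3.53 CPM in stems, against 0.318, 0.272 and 0.100 CPM in leaves (log2 fold change 3.99 ± 0.52, adjusted p = 0.0105). ARD4 (As_12788), of the methionine salvage cycle, was lower with 152, 192 and 67.8 CPM in stems, against 498, 828 and 131 CPM in leaves (log2 fold change -1.59 ± 0.27, adjusted p = 0.0197). Without Eq4, ATSGS1 and ARD4 had adjusted p = 0.0685 and 0.0507, without Eq5 the 4 had 0.087 to 0.161, and without the tree block ARD4 had 0.117. Of 14 mitochondrial respiration transcripts, 13 matched to the mitochondrial genome, 0 were called by edgeR (adjusted p from 0.197 to 0.864), beside 21.0% of all transcripts. DESeq2 called 0 of the 14, beside 8248 of 31468 transcripts. By edgeR 0 of the 14 had an unadjusted p under 0.05, beside 11490 of 31468 transcripts. The median log2 fold change of the 14 was -0.43.

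Other members and copies that the naming rule takes from each list did not pass by edgeR, and their log2 fold changes follow with the adjusted p in parentheses. For walls these were COB As_26071 at -1.63 (0.0748), COB As_15010 at 2.76 (0.0953), TBL33 As_19348 at 3.76 (0.0537), AT5G05340 As_16204 at 2.06 (0.0781) and AT5G56590 As_18420 at 0.68 (0.0605). COB anchors oriented cellulose deposition. For flavonoids and their regulators they were ANL2 As_20077 at -0.73 (0.109), 4CL2 As_13197 at 2.09 (0.119), MYB111 As_41194 at -2.69 (0.164) and HY5 As_36206 at -0.24 (0.491). For abscisic acid, water deficit and hypoxia they were HB-7 As_17082 at 1.75 (0.140), RD26 As_12052 at -1.86 (0.165) and HRA1 As_48776 at 0.96 (0.275). RD26 is a NAC factor and HB-7 a homeodomain factor, both induced by abscisic acid in *Arabidopsis*. By DESeq2, 4CL2, HB-7, RD26 and HSP17.6II As_24319 were called (adjusted p = 0.00572, 0.0183, 0.0158 and 0.00538), as were TBL33, COB As_15010 and AT5G05340 of the walls (1.03e-06, 0.000417 and 0.00139). For cold and heat they were ATRZ-1A As_16912 at -0.49 (0.112), AT2G37770 As_3802 at 0.05 (0.965), HSP17.6II As_24319 at -1.84 (0.102) and HSP17.6II As_11099 at -0.07 (0.884). For transport and vitamins they were AT3G21620 As_27360 at 0.59 (0.255) and PMM As_18774 at 0.00 (0.997). For respiration they were ACO3 As_46521 at 0.54 (0.197), NAD4 As_27964 at -0.94 (0.216), ATP6-1 As_17093 at -1.25 (0.247), NAD9 As_19213 at -0.40 (0.349) and NAD4 As_25573 at -0.35 (0.596), and the copies of NAD7 and CCB452 lay between -0.68 and -0.14. Of 15 transcripts that the study held as candidates of selection, RAP2.4 As_15910 was called higher and ARD4 lower, as given above. Among all transcripts, 10.3% were called higher and 10.8% lower. ATSLY1 As_18457 at 0.72 (0.0726), AT1G48960 As_20316 at -0.69 (0.102) and AT5G11700 As_44199 at 0.47 (0.189) were next of the 12 candidates that no other list holds.

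**Figure D4:**
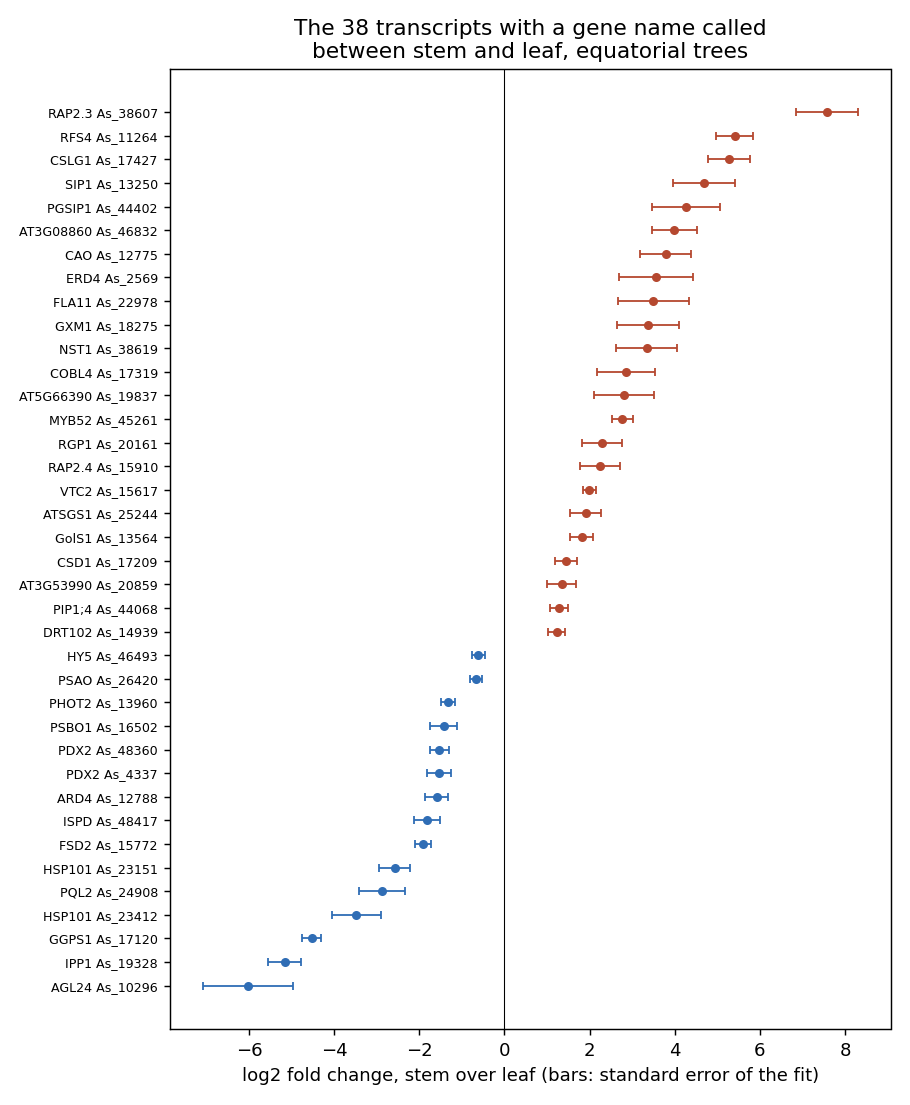
Log2 fold change of stem over leaf with its standard error for the 38 called transcripts with a gene name, 23 higher in red and 15 lower in blue, ordered by value. RAP2.3, whose leaves hold 1 count in all, is at the top, and AGL24 at the bottom.

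Many DETs had no gene name (6576 of 6614), and those with the largest fitted differences were counted in 1 tissue. The coding transcript As_11088 had 220.1, 230.5 and 147 CPM in stems, against 0, 0 and 0 CPM in leaves, at least 1986-fold higher with a floor of 3 counts over the 3 leaf libraries (adjusted p = 0.00492). The non-coding non_cod_As_28385 had 88.4, 43.5 and 77.6 CPM in stems, against 0, 0 and 0 CPM in leaves, at least 696-fold higher (adjusted p = 0.00524). In leaves, As_23986 had 67.0, 96.5 and 80.2 CPM and As_23991 37.8, 32.5 and 83.2 CPM, with 0 in the 3 stems of both, at least 1238-fold and 779.9-fold lower in stem (adjusted p = 0.00495 and 0.00547). In all, 518 transcripts had at least 3 counts in each of the 3 stems and 0 in the 3 leaves, of which 140 were tested and 130 called. Another 104 had at least 3 counts in each of the 3 leaves and 0 in the 3 stems, of which 46 were tested and 46 called. Of all transcripts tested, 21.0% were called. Both sets were picked by their counts in these same libraries, so that their calls largely follow from that choice. Their levels were low, with a median of 0.99 CPM for the 518 and 1.78 CPM for the 104. Of the 518, 270 were also at 0 in the subtropical leaves, and 256 were counted in both equatorial flower libraries Eq4 and Eq5. Of the 104, 40 were also at 0 in the subtropical stems, and 39 were counted in both of those flower libraries. The most abundant DET higher in stem was non_cod_As_37951 with 1675, 1527 and 1879 CPM in stems, against 875, 733 and 672 CPM in leaves (log2 fold change 1.16 ± 0.23, adjusted p = 0.0287). The most abundant one lower in stem was As_44132 with 6989, 2470.3 and 2828 CPM in stems, against 19205, 25346 and 14846 CPM in leaves (log2 fold change -2.40 ± 0.54, adjusted p = 0.0370). The lowest leaf of As_44132 exceeded the highest stem.

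Compared with the subtropical trees, most of the difference was shared. Of the 6307 equatorial DETs also tested there, 4897 (77.6%) were called in the same direction by the same test in the 3 subtropical trees, in which 27.0% of 31766 transcripts were called, and 8 were called the other way. The sign was shared by 98.2% of them, against 77.3% of all 29545 transcripts tested at both sites. The trees of the sites are different and so share no library. Conversely, 60.3% of 8123 subtropical DETs were called the same way in the equatorial trees. The wood marker sum of the stem exceeded that of the leaf 31.0 to 63.4-fold in the subtropical trees, against 1.87 to 26.5-fold in the equatorial ones. Its leaf sums were 8.45 to 11.8 CPM against 19.0 to 125 CPM, and its stem sums 285 to 749 CPM against 179.7 to 3308 CPM. The study reported its cell wall transcripts as higher in equatorial trees of these libraries, so that these ratios are not independent of that choice. The sites' difference in this sum was not tested.

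The difference between the sites was tested as the interaction of tissue and site over 12 libraries, in which 20 of 35054 transcripts (0.0571%) passed the same threshold, 19 with a lower and 1 with a higher stem minus leaf difference in equatorial trees (2637 at an unadjusted p under 0.05). Named transcripts among them were IPP1 As_19328 and GGPS1 As_17120, which the study had picked as differing between sites in these libraries, so that the call is not independent of that choice. IPP1 had 119.7, 103 and 70.7 CPM in the St1, St2 and St4 stems, against 209, 165 and 93.8 CPM in the leaves (difference of log2 fold changes -4.51, adjusted p = 0.0163). GGPS1 had 73.5, 149 and 73.7 CPM in the St1, St2 and St4 stems, against 188, 205 and 188 CPM in the leaves (difference of log2 fold changes -3.45, adjusted p = 0.0253). Subtropical CPM were scaled over the 6 libraries of that site, so that levels of the sites are set side by side without a test. In both, the subtropical stems lay above the equatorial stems given above, while the leaves of the sites overlapped. Of the unnamed ones, As_48588 had 24.5, 31.2 and 9.76 CPM in stems, against 879.6, 1051 and 273 CPM in leaves at the equatorial site. Subtropical levels were 2101, 1235 and 1012 CPM in the St1, St2 and St4 stems, against 1169.6, 867 and 629 CPM in the leaves (difference of log2 fold changes -5.67, adjusted p = 0.000494). The non-coding non_cod_As_38315 had 8.48, 14.6 and 4.47 CPM in stems, against 332, 459 and 95.1 CPM in leaves there, with 883, 469.6 and 312 CPM in the St1, St2 and St4 stems, against 468, 367 and 196 CPM in the leaves (difference of log2 fold changes -5.52, adjusted p = 0.00175). In 6 of the 20, the fitted change had opposite signs at the sites. As_26218, the 1 with a larger difference in equatorial trees, had 105, 38.4 and 82.2 CPM in stems, against 9.87, 3.53 and 7.01 CPM in leaves there, with 32.3, 36.5 and 29.8 CPM in the St1, St2 and St4 stems, against 8.97, 11.1 and 7.97 CPM in the leaves (difference of log2 fold changes 1.67, adjusted p = 0.0487). DESeq2 called 200 for the interaction, the fit without the tree block 4, and leaving out 1 tree between 5 and 29 (22, 8 and 29 on omitting Eq4, Eq5 and Eq6 in turn, and 9, 5 and 6 on omitting St1, St2 and St4). On omitting Eq5 or any subtropical tree, neither named transcript passed (adjusted p from 0.0847 to 0.208 for IPP1 As_19328 and from 0.0819 to 0.116 for GGPS1 As_17120). As_26218 lost its call on omitting any 1 of the 6 trees (adjusted p from 0.105 to 0.333). Without the tree block, GGPS1 As_17120, As_48588, non_cod_As_38315 and As_26218 had adjusted p = 0.713, 0.0641, 0.136 and 0.812.

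**Figure D5:**
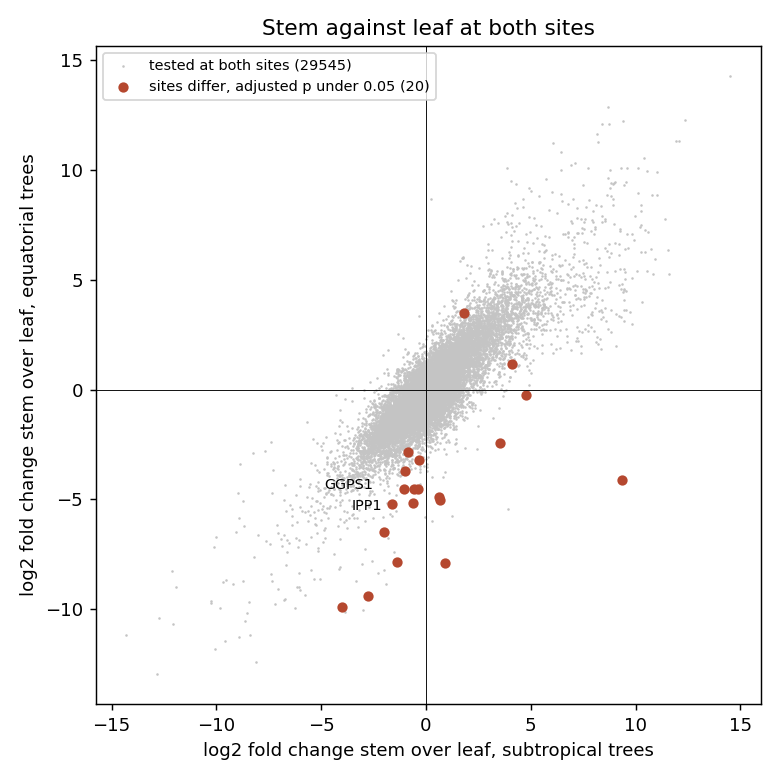
Log2 fold change of stem over leaf in the equatorial trees (vertical axis) against the subtropical trees (horizontal axis) for 29545 transcripts tested at both sites. The 20 red points differ between sites, most of them under the cloud, and IPP1 and GGPS1 are labelled.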

How the data were processed

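RNA of stems and leaves was sequenced from 3 equatorial trees. The authors filtered reads by quality, assembled a transcriptome de novo, mapped reads with Bowtie (version 0.12.2 in the submitters' processing notes) and deposited counts of reads mapped to a single transcript, without normalization. Near-identical copies therefore lose reads. Samples were grouped by their titles.

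From these counts, transcripts were kept by edgeR's filterByExpr by tissue, scaled by TMM and tested with edgeR 4.0.16 (R 4.3.3) by glmQLFit and glmQLFTest with tree as block, since the labels give the stem and leaf of a tree one name, so that 2 residual degrees of freedom remain. Over 31468 transcripts, stem and leaf deviations from the tissue means correlated at r = -0.07 (Eq4), 0.45 (Eq5) and 0.31 (Eq6). The methods of the study compare sites and use no block. Adjusted p is Benjamini-Hochberg over all transcripts tested, at 0.05. Levels are CPM, the prior count was 2, and a value after ± is the standard error of a log2 fold change unless SD is written. With the tree as a block, p-values measure the spread of the stem minus leaf difference between 3 trees. The quasi-likelihood fit moderates this spread for each transcript toward a trend over all transcripts. Intervals and floors cover counting error only. The lowest chi-square per transcript between libraries of a tissue was 37.6 in stems and 26.0 in leaves, so that no library was counted as a repeat.

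The members and gene lists were chosen with earlier results of these data known. Named transcripts are up to 4 of smallest adjusted p in each gene list, the genes CESA4, CESA7, CESA8, LAC4, NST1, FLA11, GAUT12, PSAO, PSB27, PSBO1, PHOT2, CAO, GolS1, NCED3, PIP1;4, HSP101, HY5, CSD1, CSD2 and the reference transcripts, and all copies of a match. Called transcripts outside this rule were named after their values were seen. Of those without a name, they are the 2 with the largest and the 2 with the smallest fold change among called transcripts of at least 10 CPM without overlap, and the most abundant called in each direction. For the interaction they are the named calls and up to 2 unnamed ones of smallest adjusted p in each direction. DESeq2 1.42.0, RLE scaling, total counts, 2 other filters, the exact test, a fit on 12 libraries, no block and leaving out each tree were tried. DESeq2 and no block without Eq5 were added after the data were seen. The scripts were tested on simulated data. Flower libraries of these trees were used only to count tissue-only transcripts.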

Additional observations from a re-analysis of the deposited data

Results flagged for a closer look

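The stem minus leaf difference itself differed between the sites for 20 transcripts, by a test of the interaction of tissue and site in 12 libraries. The difference of log2 fold changes, equatorial minus subtropical, was -5.67 for As_48588, -5.52 for non_cod_As_38315, -4.51 for As_19328 (IPP1), -3.45 for As_17120 (GGPS1) and 1.67 for As_26218. No group has 4 or more samples, so that single samples were not screened for distance from the others.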

How the results depend on the processing

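With 3 trees, the comparison rests on how far the stem minus leaf difference varies between trees. With 1 library per tree and tissue, a tree's own difference has no replicate. Without the tree block, 5728 transcripts were called (3058 higher, 2670 lower), and 22 of the 38 named calls remained. By total counts 5033 were called higher. Leaving out 1 tree gave 0 to 6375 calls, 0 to 3076 higher and 0 to 3299 lower, with the 0 from leaving out Eq5, and the cause was not tested. Without Eq5, DESeq2 called 3732 (1938 higher, 1794 lower) and the test without the block 0, 0 higher and 0 lower, with 7640 at an unadjusted p under 0.05. These 2 settings were chosen after seeing the data. DESeq2, the exact test, RLE, no filter, a filter at 1 CPM and the 12-library fit gave 6556 to 9343 calls. The interaction gave 200 calls by DESeq2, 4 without the block, and 5 to 29 with 1 tree left out. Of 38 named calls, 31 of the 37 fitted remained without Eq4, 0 without Eq5 and 32 without Eq6. In the alternatives run, none of the named calls changed sign.

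Log2 fold changes that changed sign belong to transcripts that were not called. HSP17.6II As_11099 was at 0.0776 without the block and by the exact test, 0.23 by total counts and -0.30 to 0.32 with 1 tree left out. By total counts HY5 As_36206 was at 0.0653, UBC11 As_43999 at 0.0537 and CCB452 As_27336 at 0.16. With 1 tree left out, AT2G37770 As_3802 ran from -0.66 to 0.58, NAD4 As_25573 from -0.72 to 0.12, CCB452 As_27336 from -0.65 to 0.28, CCB452 As_45325 from -1.44 to 0.21, NAD7 As_25335 from -1.10 to 0.0391 and NAD7 As_30365 from -1.17 to 0.0644. Without Eq5, by DESeq2 and then without the block, NAD4 As_25573 was at 0.12 and 0.17, CCB452 As_27336 at 0.28 and 0.33, CCB452 As_45325 at 0.21 and 0.36, NAD7 As_25335 at 0.0433 and 0.0433, and NAD7 As_30365 at 0.0704 and 0.048.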

Other observations

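Among the 20 transcripts whose stem minus leaf difference differed between sites, 1 was singled out after its values were seen. As_23124, a coding transcript without a gene name, had 0.123, 0.177 and 0.331 CPM in stems, against 8.60, 2.04 and 2.60 CPM in leaves at the equatorial site. At the subtropical site it had 667, 240.1 and 169.7 CPM in the St1, St2 and St4 stems, against 0.236, 1.20 and 0 CPM in the leaves. The difference of log2 fold changes was -13.52 (adjusted p = 0.00910, edgeR), the largest in size of the 20.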
